A study of Mus musculus with 5 samples.

Results

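RANK signalling was followed here through 10 genes in lymphatic endothelial cells (LECs) of the mouse lymph node, with 3 libraries from control and 2 from knockout mice. The genes were taken by name from the 27843 in the count table. They encode the ligand RANKL (Tnfsf11), its receptor RANK (Tnfrsf11a), the soluble decoy receptor osteoprotegerin (Tnfrsf11b), the adaptors Traf1, Traf2, Traf3, Traf5 and Traf6, the kinase NIK (Map3k14) and the ubiquitin ligase cIAP2 (Birc3). All 10 were measured and passed the filter on low counts. Both groups were C57BL/6 mice aged 8 weeks with Rankl flox/flox alleles, and the knockout mice also carried Ccl19 Cre, which removes Rankl in the stromal cells that use the Ccl19 promoter. The cells were CD45-, TER119-, CD31+ and podoplanin+. No control carried Cre without the floxed alleles, so an effect of Cre itself and of the loss of Rankl cannot be told apart. The number of animals behind each library is not in the labels.

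RANK is a receptor of the TNF receptor superfamily with no enzyme of its own. When RANKL binds, the tail of RANK recruits TRAF adaptors: TRAF6 leads to the canonical NF-kB and MAP kinase pathways, while TRAF2, TRAF3 and the cIAP ligases control NIK. In resting cells TRAF3 docks NIK to TRAF2 and the cIAPs, which mark NIK for degradation. Loss of TRAF3 lets NIK build up and drive the alternative NF-kB pathway, in which p100 (Nfkb2) is processed and pairs with RelB. Osteoprotegerin binds RANKL and keeps it from RANK. In lymph nodes, RANKL made by stromal cells acts on LECs that carry RANK.

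Of the 10 genes, 2 fell in the knockout, Traf3 and Birc3, and 0 rose (edgeR quasi-likelihood test, Benjamini-Hochberg adjusted p under 0.05). The mean level of RANK was nearly the same in both groups, with the knockouts on either side of the controls. The median log2 fold change (knockout minus control) of the 10 was -0.05, against 0.00 over all tested genes. Over the 15874 genes tested, 7.24% were called in either direction, 3.99% lower and 3.25% higher. At an unadjusted p under 0.05 there were 3 of the 10 genes, the third being Traf5, against 26.4% of all tested genes, so this count is near the background. DESeq2 called the same 2 genes lower and Traf5 higher, and of the genes to which it gave an adjusted p it called 18.5%, 10.1% lower and 8.37% higher.

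The libraries held 52839375 to 70171307 reads, and 20359 to 21933 genes had at least 1 read. All 8 of the LEC markers checked were present, with a summed level of 9190 to 10307 CPM (counts scaled to the size of the library) in controls and of 11641 and 9751 CPM in knockouts 1 and 2. Within this sum 2 of the 8 rose and 1 fell. Pecam1 (CD31) and Pdpn (podoplanin), also among the 8, encode the sort markers, so their presence follows from the gate and is no check of identity. Mmrn1, which encodes the matrix protein multimerin, was at 1706, 1127 and 1292 CPM in controls and at 5029 and 3056 CPM in knockouts, and Ccl21a, a chemokine gene, at 28.9, 34.0 and 24.2 CPM and at 661 and 142 CPM. Prox1, the lymphatic fate factor, was at 1577, 1384 and 1416 CPM in controls and at 884 and 852 CPM in knockouts, and Lyve1, a hyaluronan receptor that did not pass, at 4556, 4321 and 4717 CPM and at 2441 and 3663 CPM. Of 10 markers of blood endothelium, whose cells lack podoplanin, 8 rose and 0 fell in knockout, with a summed level of 2556 to 2886 CPM in controls and of 3000 and 3905 CPM in knockouts 1 and 2. Plvap made up most of that sum, and the other 9 summed to 76.9 to 100.3 CPM in controls and to 213.5 and 277.5 CPM in knockouts. Lymphocyte markers, of which 0 rose and 1 fell among 10, summed to 12.7 to 21.04 CPM in controls and to 23.8 and 32.9 CPM in knockouts, and 0 of these 10 genes were without reads in all libraries. Macrophage and dendritic cell markers (1 of 9 tested rose and 2 fell) summed to 281 to 350 CPM in controls and to 268 and 305 CPM in knockouts. Zbtb46 alone was at 260 to 343 CPM in these libraries, and the other 9 summed to 6.87 to 7.90 CPM in controls and to 7.62 and 4.13 CPM in knockouts. Pericyte and smooth muscle markers (2 of 8 rose and 0 fell) summed to 88.5 to 123 CPM in controls and to 152 and 123 CPM in knockouts. The part of these cells in the results below was not tested. In sorted pools, fewer cells of a kind and less RNA per cell cannot be told apart.

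The promoters of the 2 genes that fell are shown because NF-kB, the factor downstream of RANK, is known to regulate Birc3 and other genes of its own pathway. Each stretch is the 250 bases before the RefSeq gene start (GRCm38.p6), 5′ to 3′ on the strand of the gene. Capitals mark a match to the kappaB consensus, searched on both strands. The Traf3 stretch lies at chr12:111166120-111166369 on the plus strand and the Birc3 stretch at chr9:7873171-7873420 on the minus strand.
Traf3: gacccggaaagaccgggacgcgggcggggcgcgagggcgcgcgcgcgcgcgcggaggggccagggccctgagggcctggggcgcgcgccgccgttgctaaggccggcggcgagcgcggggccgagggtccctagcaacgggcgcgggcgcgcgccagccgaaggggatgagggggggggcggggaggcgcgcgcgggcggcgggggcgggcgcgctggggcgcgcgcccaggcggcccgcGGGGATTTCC
Birc3: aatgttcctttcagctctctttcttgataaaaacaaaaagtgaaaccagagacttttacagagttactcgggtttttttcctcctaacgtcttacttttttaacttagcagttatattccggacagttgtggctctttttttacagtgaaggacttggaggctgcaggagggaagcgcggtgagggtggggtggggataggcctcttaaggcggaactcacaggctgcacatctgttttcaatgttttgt
Traf3 had 1 match, GGGGATTTCC, on the strand of the gene and directly before the start. Of the 10 genes, 9 had a promoter in the table and Traf3 was the 1 with a match. Among all 32851 promoters of this length searched, 7.25% held a match. A match is a run of letters and was not tested for binding, and its absence elsewhere applies to this window and this consensus alone.

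The level per exon length, in CPM per kilobase of exon, ordered the 10 genes within the controls. The length was that of all annotated exons of a gene merged, and another length could change the order and the overlaps. Birc3 led at 136 ± 8.71 (SD, n = 3), followed by Tnfrsf11a at 36.8 ± 0.106. Birc3 lay above 98% and Tnfrsf11a above 91.9% of the tested genes with a known length, so the receptor was among the more abundant transcripts of these cells. The adaptors formed the middle, with Traf1 at 16.3 ± 1.55, Traf2 at 11.4 ± 0.737, Traf6 at 10.7 ± 0.964, Traf3 at 7.66 ± 0.436 and Traf5 at 3.67 ± 0.106 CPM per kb. Map3k14, at 7.67 ± 0.754 CPM per kb, stood level with Traf3 by this length. Its merged exons hold 6550 bases, and its longest transcript 4197 overlapping windows of 50 bases. For Traf3 these were 7350 and 7011. The longest transcript as length would place Map3k14 higher relative to Traf3. It would also raise Traf1 (8819 merged bases and 3387 windows) and Traf5 (4566 and 2035) relative to Traf3. The control ranges of Traf2 and Traf6 overlapped, as did those of Map3k14 and Traf3, and the other neighbours in the order did not overlap. Tnfrsf11b at 0.412 ± 0.349 and Tnfsf11 at 0.114 ± 0.0495 CPM per kb came last, above 25.5% and 11% of tested genes. The order of the group means was the same in the knockouts.

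**Figure D1:**
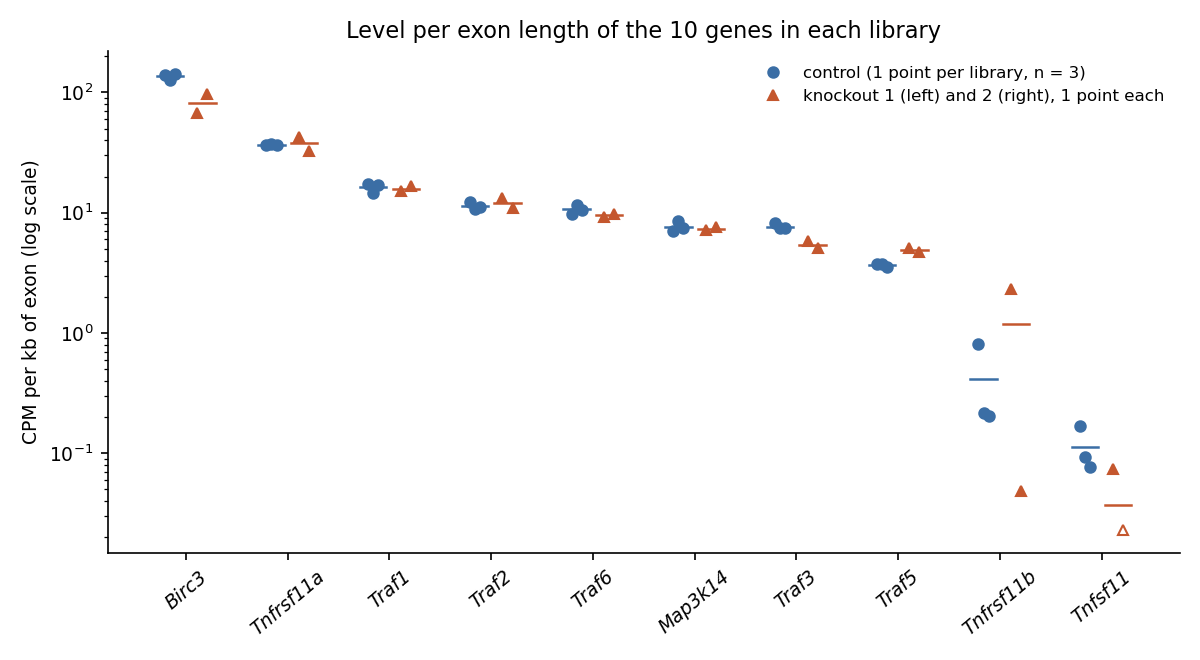
Level of the 10 genes in CPM per kilobase of exon (vertical axis, log scale), 1 point per library (circles, 3 controls; triangles, knockout 1 on the left and knockout 2 on the right), with a line at each group mean. The open triangle for Tnfsf11 stands for 0 reads in knockout 2 and is drawn at the level of 3 reads; both knockouts lie below all controls for Birc3 and Traf3 and above them for Traf5.

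Tnfsf11 (ENSMUSG00000022015, chromosome 14, 78277445 to 78308043 on mm10) had few reads in any library. It had 27, 13 and 9 reads in controls 1, 2 and 3, and 9 and 0 reads in knockouts 1 and 2. In CPM these were 0.380, 0.208 and 0.173 in controls and 0.164 and 0 in knockouts, so that knockout 1 lay just below the lowest control. The 0 in knockout 2 allows up to 3 reads, or 0.0516 CPM, by counting error alone. The log2 fold change was -1.63 ± 1.12 (SE) with a 95% interval of -4.30 to 1.03, and the test was not passed (edgeR quasi-likelihood, Benjamini-Hochberg adjusted p = 0.407). It was -0.64 without knockout 2, -2.75 with limma-voom and -6.98 without knockout 1, where the remaining knockout has 0 reads and the fitted value is no measured size. LECs are not the cells in which Ccl19 Cre is meant to act, and these reads do not check the deletion.

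Tnfrsf11a (ENSMUSG00000026321, chromosome 1, 105780718 to 105847981) was steady among controls, at 220, 221 and 220 CPM, while knockouts 1 and 2 had 257 and 194 CPM. The knockouts lay on either side of the controls, 1 above and 1 below. The log2 fold change was 0.03 ± 0.13 (SE), with a 95% interval of -0.27 to 0.33, which spans 0.830 to 1.26 times the control level (edgeR quasi-likelihood, Benjamini-Hochberg adjusted p = 0.9). It was -0.19 without knockout 1 and 0.21 without knockout 2, and neither passed. The interval rests on 2 knockouts that differ, with an SD of 44.1 CPM against 0.635 CPM in the controls. It does not settle whether RANK was lower in the knockouts.

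Among the 4910 genes with a mean log2 CPM of at least 5, the 3 whose pattern over the 5 libraries lay nearest to Tnfrsf11a were Eif2d, Rps6ka4 and Spata6. The measure was the root mean square difference of log2 CPM after each gene was centred on its own mean. It was 0.0196 for Eif2d, 0.0206 for Rps6ka4 and 0.0213 for Spata6, against a median of 0.200 over these genes. Each of the 3 had, like Tnfrsf11a, close controls, a higher value in knockout 1 and a lower one in knockout 2. With 5 libraries, such likeness is a description only.

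Tnfrsf11b (ENSMUSG00000063727, chromosome 15, 54250619 to 54278484), the decoy, varied widely within each group. It had 163, 38 and 30 reads in controls 1, 2 and 3 and 360 and 8 reads in knockouts 1 and 2, or 2.30, 0.609 and 0.577 CPM and 6.58 and 0.138 CPM. Knockout 1 was the highest and knockout 2 the lowest of the 5 libraries. The log2 fold change of 1.52 ± 1.22 (SE) had a 95% interval of -1.38 to 4.41 and was not past the threshold (edgeR quasi-likelihood, Benjamini-Hochberg adjusted p = 0.483). It was -0.07 with limma-voom and 0.01 with a replicate block, and turned to -3.08 without knockout 1.

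Osteoprotegerin is known as a product of mesenchymal cells and also of endothelial cells. The CD31+ gate is meant to remove mesenchymal cells, yet their markers had reads, and these differed between the knockout libraries. The 10 fibroblastic reticular and mesenchymal markers summed to 333 to 487 CPM in controls, and to 1077 and 478 CPM in knockouts 1 and 2. All 10 had reads above 1 CPM in every library, all 10 were higher in knockout 1 than in knockout 2, and 7 had their highest value in knockout 1. The rest were highest in a control: Ccl19 (4.647 CPM) and Lum (6.435 CPM) in control 1 and Cxcl13 (28.56 CPM) in control 3. In knockout 2, where Tnfrsf11b was lowest, 3 of the 10 markers were at their lowest. Dcn, which encodes the matrix proteoglycan decorin, was the largest part of the sum in every library. It stood at 217, 325 and 234 CPM in controls and at 692 and 332 CPM in knockouts 1 and 2, both above all controls. Col3a1, a fibrillar collagen chain, was at 145, 83.9 and 31.3 CPM in controls and at 213 and 89.1 CPM in knockouts. Of the 10 markers, 0 were called higher and 0 lower, with 1 at an unadjusted p under 0.05. DESeq2, like edgeR, did not call Tnfrsf11b. The part of mesenchymal RNA in its level was not tested.

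**Figure D2:**
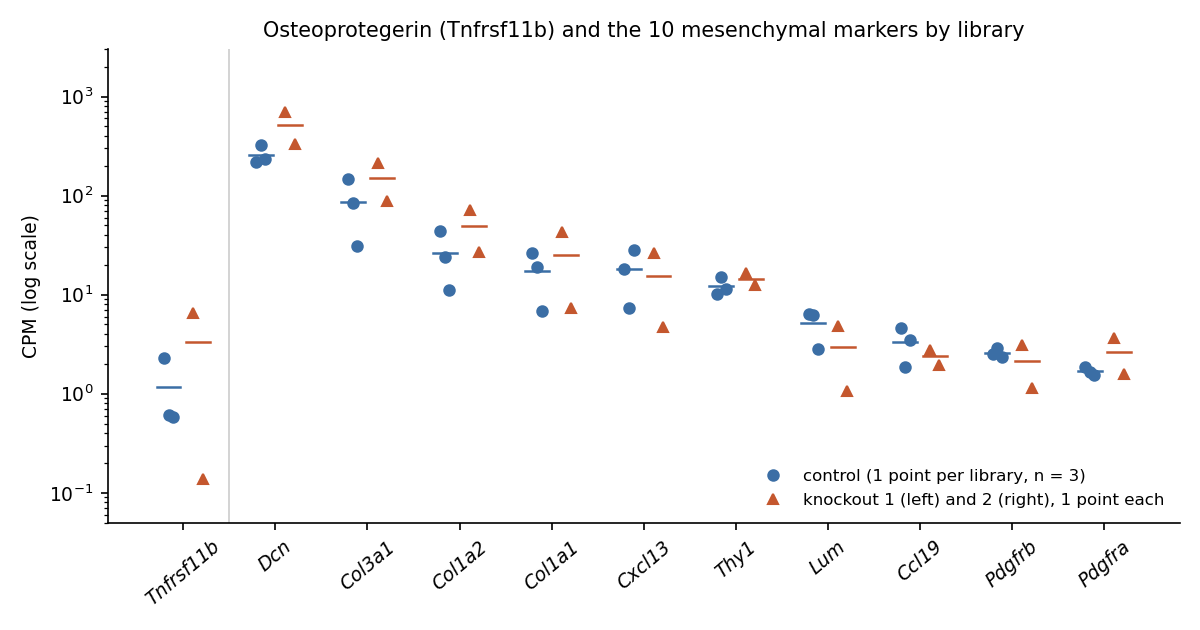
CPM (vertical axis, log scale) of Tnfrsf11b and of the 10 mesenchymal markers, 1 point per library (circles, controls 1 to 3 from left to right; triangles, knockout 1 on the left and knockout 2 on the right), with a line at each group mean. For Tnfrsf11b and all 10 markers knockout 1 lies above knockout 2, by 6.58 against 0.138 CPM for Tnfrsf11b.

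Traf3 (ENSMUSG00000021277, chromosome 12, 111166370 to 111267153), the adaptor that holds NIK in check, fell. It stood at 60.0, 54.4 and 54.6 CPM in controls 1, 2 and 3 and at 42.7 and 37.1 CPM in knockouts 1 and 2. Both knockouts lay below all controls. The log2 fold change was -0.50 ± 0.10 (SE), 29.2% below the control level, with a 95% interval of -0.74 to -0.25 (edgeR quasi-likelihood, Benjamini-Hochberg adjusted p = 0.0384). Its call was lost without each control library, without knockout 2 (-0.40), with library totals alone (-0.49, adjusted p = 0.0605) and with an offset that removes trends with gene length and GC (-0.38, adjusted p = 0.0592), with the same direction in all 16 alternatives.

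Birc3 (ENSMUSG00000032000, chromosome 9, 7848699 to 7873186), the ligase that works with TRAF2 and TRAF3, fell as well and was the most abundant of the 10. Its level was 695, 635 and 720 CPM in controls 1, 2 and 3 and 338 and 486 CPM in knockouts 1 and 2. The groups did not overlap, and the lower knockout was knockout 1. Its log2 fold change was -0.73 ± 0.17 (SE), 39.7% below the control level, with a 95% interval of -1.12 to -0.34 (edgeR quasi-likelihood, Benjamini-Hochberg adjusted p = 0.0475). It was -0.50 without knockout 1 and -1.02 without knockout 2, both past the threshold. The call was lost without each control library and with the length and GC offset (-0.68, adjusted p = 0.0831). Of the 50-base windows of its longest transcript, 7.66% also occur in transcripts of other genes, and 0 of them in Birc2.

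Birc2, which encodes the related ligase cIAP1 and lies 11634 bases from Birc3 (chromosome 9, 7818227 to 7837064), was looked at after its values were seen. It stood at 419, 408 and 520 CPM in controls and at 207 and 331 CPM in knockouts 1 and 2, again with no overlap and with knockout 1 lowest. Its log2 fold change of -0.74 ± 0.21 (SE) did not pass over all genes (edgeR quasi-likelihood, Benjamini-Hochberg adjusted p = 0.0834). It passed with DESeq2 (adjusted p = 0.00521) and without knockout 2 (-1.12, adjusted p = 0.0114), and was -0.44 without knockout 1.

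Traf5 (ENSMUSG00000026637, chromosome 1, 191997205 to 192092559), which can join TRAF2 in NF-kB activation, differed in the other direction but missed the threshold. It stood at 17.1, 17.0 and 16.2 CPM in controls and at 23.4 and 21.7 CPM in knockouts 1 and 2, so both knockouts lay above all controls. A log2 fold change of 0.43 ± 0.10 (SE) was measured, with a 95% interval of 0.18 to 0.67 (edgeR quasi-likelihood, Benjamini-Hochberg adjusted p = 0.0556). It passed with DESeq2 (adjusted p = 0.0082) and with a filter at 1 CPM (adjusted p = 0.0439). With the length and GC offset it passed too (0.48, adjusted p = 0.0485). It did not pass when any 1 control was left out, with limma-voom (adjusted p = 0.0585) or with a replicate block in edgeR (adjusted p = 0.262). Without knockout 1 the log2 fold change was 0.37, and without knockout 2 it was 0.48. Exons of the antisense gene Gm26879 and of a microRNA gene cover 5.91% of its exon bases, and the library kits do not mark strand.

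The other adaptors did not pass and had narrow intervals. Traf6, the main route from RANK to canonical NF-kB, stood at 77.4, 92.3 and 82.3 CPM in controls and at 72.6 and 77.2 CPM in knockouts, with a log2 fold change of -0.16 ± 0.10 (SE). Both knockout values of Traf6 lay below all controls, by little. Traf2, which recruits the cIAPs, stood at 62.2, 54.8 and 57.4 CPM in controls and at 67.2 and 56.0 CPM in knockouts (log2 fold change 0.08 ± 0.11). Traf1, a TRAF without a RING domain that pairs with TRAF2 and is known as an NF-kB target, stood at 154, 128 and 149 CPM in controls and at 133 and 146 CPM in knockouts (log2 fold change -0.04 ± 0.11). For Traf1 and Traf2 the groups overlapped.

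Map3k14 (chromosome 11, 103219762 to 103267472), the NIK gene, stood at 45.9, 55.6 and 49.3 CPM in controls and at 46.9 and 49.5 CPM in knockouts, with both knockouts inside the control range. Its log2 fold change was -0.06 ± 0.11 (SE), with a 95% interval of -0.31 to 0.19. NIK is controlled largely through the stability of its protein, which these data do not measure. The ratio of Traf3 to Map3k14, both in CPM per kb, was 1.17, 0.871 and 0.987 in controls and 0.813 and 0.668 in knockouts. Both knockout ratios lay below all controls, as did Traf3 itself. With Map3k14 inside its control range, the ratio restates the fall of Traf3 and does not measure control of NIK. The size of the ratio depends on the exon lengths used, while the comparison of the groups does not. The ratio was chosen after the levels were seen and was given no test.

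Of the 10 genes, 5 (Tnfrsf11a, Traf1, Traf2, Traf6 and Map3k14) had a 95% interval that stayed within 0.5 log2 of no change. That bound is as large as the change called for Traf3 (-0.50), and the median absolute log2 change of all tested genes was 0.28. Smaller changes in these 5 genes remain possible. The share of all tested genes with such an interval was not counted. In 5 of the 10, Tnfsf11, Traf3, Traf5, Traf6 and Birc3, both knockout libraries lay outside the control range, 4 below it and 1 above. Over all tested genes 45.4% did so, close to the share among these 10. The count of genes that fell was 2 without knockout 1, 1 without knockout 2 (Birc3) and 0 without any 1 of the controls, where 11 to 266 genes of the whole table were called.

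**Figure D3:**
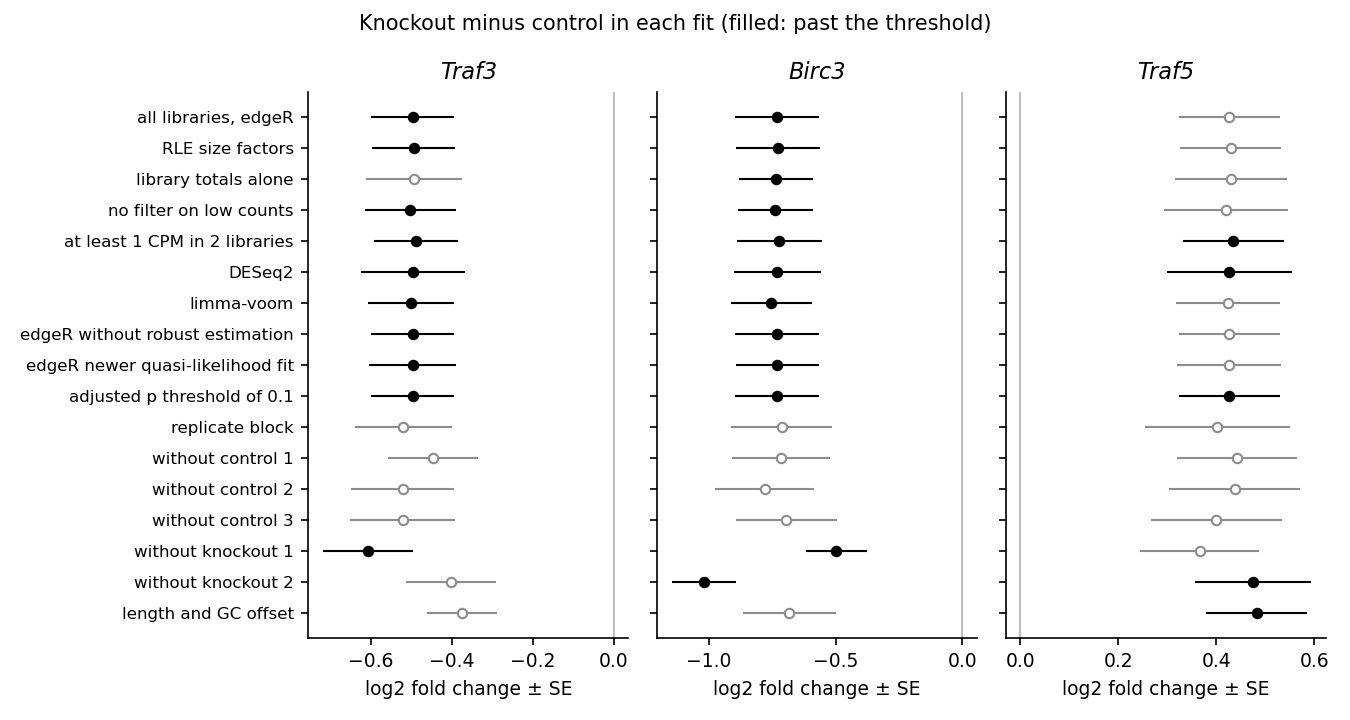
Log2 fold change, knockout minus control, of Traf3, Birc3 and Traf5 (horizontal axes, each with its own scale) in each fit, with bars of 1 SE; filled points passed that fit's threshold. Traf3 and Birc3 lie left of 0 and Traf5 right of 0 in all fits, from -0.61 to -0.38, from -1.02 to -0.50 and from 0.37 to 0.48.

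Beyond the 10 genes, 56 genes of RANK, TRAF and NF-kB signalling were counted, of which 55 passed the filter on low counts. Of these, 2 rose and 6 fell, with a median log2 fold change of 0.01. Over all tested genes 3.25% were called higher and 3.99% lower. The list was chosen with earlier results of these data known, so its counts are no test of the pathway. Of the 9 ligands and receptors tested 1 rose and 3 fell, of 12 adaptors and ligases 0 and 1, of 15 kinases 0 and 1, of 10 deubiquitinases and inhibitors 1 and 0, and of 9 transcription factors 0 and 1. At an unadjusted p under 0.05 there were 21 of the 55, against 26.4% of all genes. DESeq2 called 6 higher and 12 lower, against 18.5% of all genes called in either direction by that tool. Without control 3 none of the 55 was called by edgeR's quasi-likelihood test.

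Lgr4, a receptor of R-spondins that is known to bind RANKL as well (chromosome 2, 109917647 to 110014257), fell. It stood at 58.6, 53.5 and 51.2 CPM in controls and at 28.8 and 23.3 CPM in knockouts. Both knockouts lay far below all controls, and the level fell by 1.06 ± 0.12 on the log2 scale (SE; Benjamini-Hochberg adjusted p = 0.0128, edgeR quasi-likelihood). Tnfsf10 encodes TRAIL, the other known ligand of osteoprotegerin (chromosome 3, 27317028 to 27342427). It fell from 186, 164 and 170 CPM in controls to 84.9 and 99.99 CPM in knockouts, a log2 fold change of -0.91 ± 0.11 (adjusted p = 0.0131). Both genes kept their call without control 1, without control 2, without either knockout and under the offset for length and GC, and lost it without control 3.

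Ltb, a subunit of the ligand of the lymphotoxin beta receptor (chromosome 17, 35194439 to 35196320), fell from 160, 164 and 159 CPM to 96.5 and 118 CPM (log2 fold change -0.58 ± 0.11, SE). Tnfrsf12a, which encodes the TWEAK receptor Fn14 (chromosome 17, 23675445 to 23677468), rose from 130, 183 and 182 CPM to 289 and 314 CPM (0.87 ± 0.16). These ligands and receptors share TRAF2, TRAF3 and the cIAPs with RANK. For each of the 2 genes the groups did not overlap, which adds little for genes named because they passed. Ltb lost its call without each control, and Tnfrsf12a without control 2, control 3 or knockout 2 and under the offset (0.67).

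Traf4, a further TRAF (chromosome 11, 78158499 to 78165589), fell from 6.97, 6.97 and 7.16 CPM in controls to 3.69 and 3.46 CPM in knockouts, a log2 fold change of -0.98 ± 0.16 (SE). Map2k7, the kinase above JNK (chromosome 8, 4238740 to 4247897), fell from 27.6, 25.7 and 22.8 CPM to 15.0 and 15.6 CPM (-0.73 ± 0.12). Rel, the NF-kB subunit c-Rel (chromosome 11, 23736847 to 23770970), fell from 133, 114 and 123 CPM to 67.1 and 75.5 CPM (-0.79 ± 0.11). Nfkbib, an inhibitor of NF-kB (chromosome 7, 28758251 to 28767512), rose from 75.2, 76.5 and 79.7 CPM to 96.5 and 117 CPM (0.47 ± 0.10). In each of the 4 the groups were apart, which adds little for genes named because they passed. The groups were apart in 29 of the 55 pathway genes and in 45.4% of all tested genes. Traf4 and Map2k7 lost their call without each control, Rel without control 3, and Nfkbib without each control, without knockout 2 and under the offset (0.30).

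The alternative pathway below NIK was read from its transcripts, chosen after their values were seen. Nfkb2 stood at 379, 377 and 401 CPM in controls and at 368 and 400 CPM in knockouts (log2 fold change -0.00 ± 0.09, SE). Relb stood at 291, 305 and 329 CPM in controls and at 320 and 345 CPM in knockouts (0.11 ± 0.10). For both genes the groups overlapped and the 95% interval stayed within 0.34 log2 of no change. Processing of p100 occurs in the protein and was not measured.

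**Figure D4:**
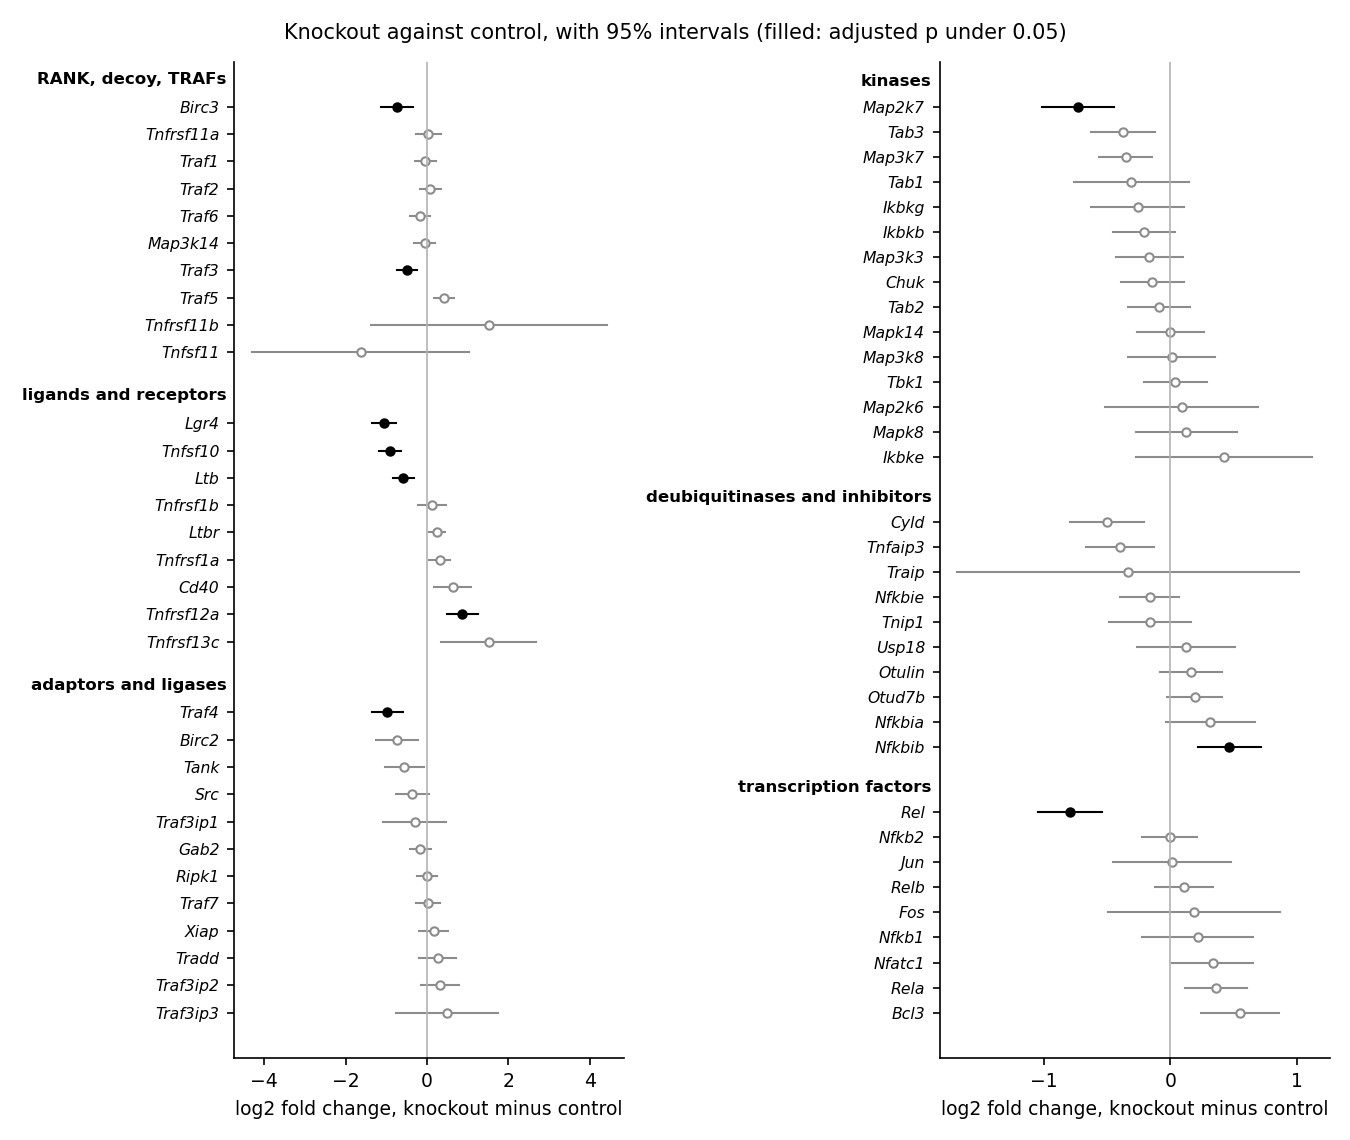
Log2 fold change, knockout minus control (horizontal axes, with a different scale on each side), of the 10 genes and of the 55 further pathway genes by role, with 95% intervals; filled points passed an adjusted p of 0.05 over all genes. Traf3 and Birc3 are the 2 filled points among the 10, and Lgr4 at -1.06 and Traf4 at -0.98 lie farthest left among the filled pathway genes.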

How the data were processed

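Poly(A) RNA of sorted LECs was read as single 50-base reads after SMART-Seq v4 and Nextera XT preparation, per the labels' protocols. Per the file headers, the values deposited are unnormalized read counts for each Ensembl gene and library. Tools named in the submitters' processing notes are HTSeq 0.6.1, bcl2fastq 2.17.1.14, Bowtie2 2.1.0 and TopHat2 2.0.14, and the build named is mm10. How they were set, and how reads mapping to several places were treated, is not given in the sources used here. PCR copies were not marked by molecular identifiers, so a floor of 3 reads covers counting error only, and 1 CPM stood for 52.0 to 71.0 reads.

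Of the table's genes, 27648 were matched by identifier to GENCODE M21 (the same build) or its name table. Groups followed the genotype in the labels. The test was edgeR 4.0.16 in R 4.3.3 (filterByExpr with a minimum count of 10, TMM, robust quasi-likelihood F test in the legacy form, Benjamini-Hochberg adjustment over all genes, threshold 0.05). SEs were derived from the F statistic and the log2 fold change, and intervals are 95%. P-values measure the spread between these libraries, which may be technical. Alternatives were RLE factors, library totals, 2 filters, DESeq2 1.42.0, limma-voom (limma 3.58.1), 2 other edgeR fits, a threshold of 0.1, a replicate block and each library left out. A loess offset (span 0.5) on exon length and transcript GC was chosen after seeing the data. The fits were also run on simulated counts with changes larger than those of Traf3 and Birc3. That run does not bear on changes of their size.

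The genes and lists were chosen with earlier results of these data known. Named were the 10 genes, each pathway gene that passed and the pathway gene with the smallest p in each role. For Tnfrsf11a, the 3 genes nearest in pattern were named, predicted genes left out. Birc2, Nfkb2, Relb, Dcn, Col3a1 and the other cell markers were named after their values were seen.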

Additional observations from a re-analysis of the deposited data

How the results depend on the processing

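For Traf3, Birc3 and Traf5, directions held better than calls, in fits that reuse the same libraries. Of 156 values of the 10 genes under the alternatives, 139 kept their side of the threshold, 12 lost a call and 5 gained one. No called value changed sign, but uncalled ones did. Of 16 alternatives, Tnfrsf11a was above 0 in 15, Tnfrsf11b in 14, Traf1 in 3, Traf2 in 15 and Map3k14 in 2. The count of the 10 genes that fell (2) was 1 with library totals alone, 0 with the length and GC offset, and 0 to 2 when 1 library was dropped. The count that rose (0) was 1 (Traf5) with a filter at 1 CPM, with DESeq2, at a threshold of 0.1 and with the length and GC offset, and 0 to 1 when 1 library was dropped. Of the 55 pathway genes, 2 rose and 6 fell. These counts were 6 and 12 with DESeq2, 5 and 11 at a threshold of 0.1, 0 to 5 and 0 to 10 when 1 library was dropped, and 0 rose with the length and GC offset. Over all genes, 1150 were called, against 2661 with DESeq2, 2546 at a threshold of 0.1, 746 with the length and GC offset and 11 to 1736 when 1 library was dropped (11 without control 3). The cause was not tested.

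With the replicate block, 0 of the 10 genes fell and 0 of the 55 pathway genes rose or fell, with 0 called over all genes and 2808 at an unadjusted p under 0.05. In that fit Traf3 had a log2 fold change of -0.52 and Birc3 of -0.71. The block leaves 1 residual degree of freedom. Deviations of same-numbered libraries from their group means correlated at 0.0477 and -0.0515. The deviations of the knockout libraries mirror each other, so these values cannot decide whether the numbers pair the libraries. The labels do not say so either. Tnfsf11 did not pass the filters at 1 CPM, without control 1 or without control 2, and DESeq2 gave it no adjusted p, so 12 of its 16 alternatives are counted. At 0 to 27 reads for Tnfsf11 and 8 to 360 for Tnfrsf11b, depth limits what can be said of either.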
